A study of Arabidopsis thaliana with 16 samples.

Results

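Transcript levels in clf-81 seedlings of Arabidopsis thaliana were compared with those in the wild type, Col-0, across the genes of the mRNA-seq table. The comparison rested on 4 of 16 libraries, 2 of clf-81 and 2 of Col-0, chosen by the genotype in their labels. It covered 19895 of the 33048 genes listed, those that reached 1 FPKM (fragments scaled to transcript length and to the number of fragments mapped) in at least 2 of the 16 libraries. The study addressed a protein complex that reads the histone mark H3K27me3, and its 8 genotypes were the Polycomb mutants clf-81 and lhp1-3, mutants of that complex (the single mutants paipp2-1, aipp2-1, cpl2-2, aipp3-1 and the double mutant aipp2-1/paipp2-1), and Col-0. All seedlings were 12 days old and grew on sucrose medium with 16 h of light a day at 23 °C, with no treatment. The clf-81 plants carried a mutant allele of CLF, the lhp1-3 plants a mutant allele of LHP1, and the nature of the lesions is not given in the sources used here. The libraries of lhp1-3 (2) served as a further comparison, by a direct test of clf-81 against lhp1-3. Nothing in the labels says that the 2 libraries of a genotype came from separately grown plants. The p-values therefore measure only the spread between libraries of the same genotype, pooled over all 8 genotypes, and that spread may be technical.

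CLF (CURLY LEAF) is one of the SET-domain enzymes of plants that place H3K27me3, the mark by which Polycomb repressive complex 2 (PRC2) keeps genes silent in tissues that do not need them. SWN is its close relative and works partly in its place, so that loss of CLF alone leaves part of the mark. LHP1 binds the mark after it has been placed. Plants without CLF are known for leaves that curl upward, early flowering, and floral homeotic genes that are active outside the flower.

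The CLF transcript itself was still present. It stood at 7.05 and 8.11 FPKM in clf-81, 11.4 and 10.2 in lhp1-3, and 9.94 and 9.98 in Col-0, so that both clf-81 libraries lay below both Col-0 libraries, by less than 2-fold, as they did for 41.1% of all genes tested. A transcript level says nothing on its own about a mutant protein, and the label of these libraries was not checked further by it. SWN was at 16.1 and 13.4 FPKM in clf-81, against 13.5 and 14.04 in Col-0, and the groups overlapped. Of the PRC2 subunit genes, 8 were tested and none was called changed (log2 fold change -0.38 to 0.11), nor was any of 9 genes of PRC1 and of H3K27me3 reading proteins or of 12 genes of H3K27 demethylases and trithorax proteins, of which 1 was called lower without replicate 1 of clf-81 or replicate 2 of Col-0.

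Library depth, recovered from the smallest steps of the FPKM values, was 19200000 to 27100000 fragments over the 16 libraries. Summed FPKM of root marker genes was 403 and 331 in clf-81, against 374 and 358 in Col-0. For leaf markers it was 7821 and 7309 in clf-81, against 10050 and 9068 in Col-0. The leaf marker RCA (Rubisco activase) was at 3316 and 2921 FPKM in clf-81 and 3861 and 3796 FPKM in Col-0. Of 28 anther and pollen markers 8 were tested, none was called changed, and the defining genes MS1, VGD1 and DUO1 were listed at 0 in all of these libraries. In whole seedlings fewer cells of a type and less RNA per cell cannot be told apart. Values of 0 or near 0 in this table need not mean that a gene was silent, since RBCS1A, which encodes a Rubisco small subunit, was listed at 0.23 and 0.20 FPKM in clf-81 and 0.29 and 0.40 FPKM in Col-0.

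More genes rose than fell by 2-fold or more in clf-81. By the criterion of a limma adjusted p under 0.05 and a difference of at least 2-fold, 1190 genes were higher (5.98% of those tested) and 507 were lower (2.55%). Of the 507 genes lower, 78 were genes of the chloroplast or mitochondrial genomes, and no organelle gene was higher, which left 429 lower outside the organelles. The rises had the larger median, with a log2 fold change of 1.58 among the genes higher and -1.36 among those lower, and 91 genes rose at least 8-fold whereas 30 fell by as much. The median over all genes tested was -0.06, a small shift of the table as a whole. The excess of rises held for changes of at least 2-fold only, since by the adjusted p alone, with no limit on size, 2610 genes were higher and 2930 lower. Against lhp1-3, 655 genes were higher in clf-81 (3.29%) and 177 were lower (0.89%), a total of 832 that became 482 without replicate 2 of clf-81 and 517 without replicate 2 of lhp1-3. The lhp1-3 libraries set against the same Col-0 libraries gave 558 genes higher (2.8%) and 362 lower (1.82%). Of the 1190 genes higher than in Col-0, 509 also stood above lhp1-3, 14 stood below it, and 667 were not called different from it.

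**Figure D1:**
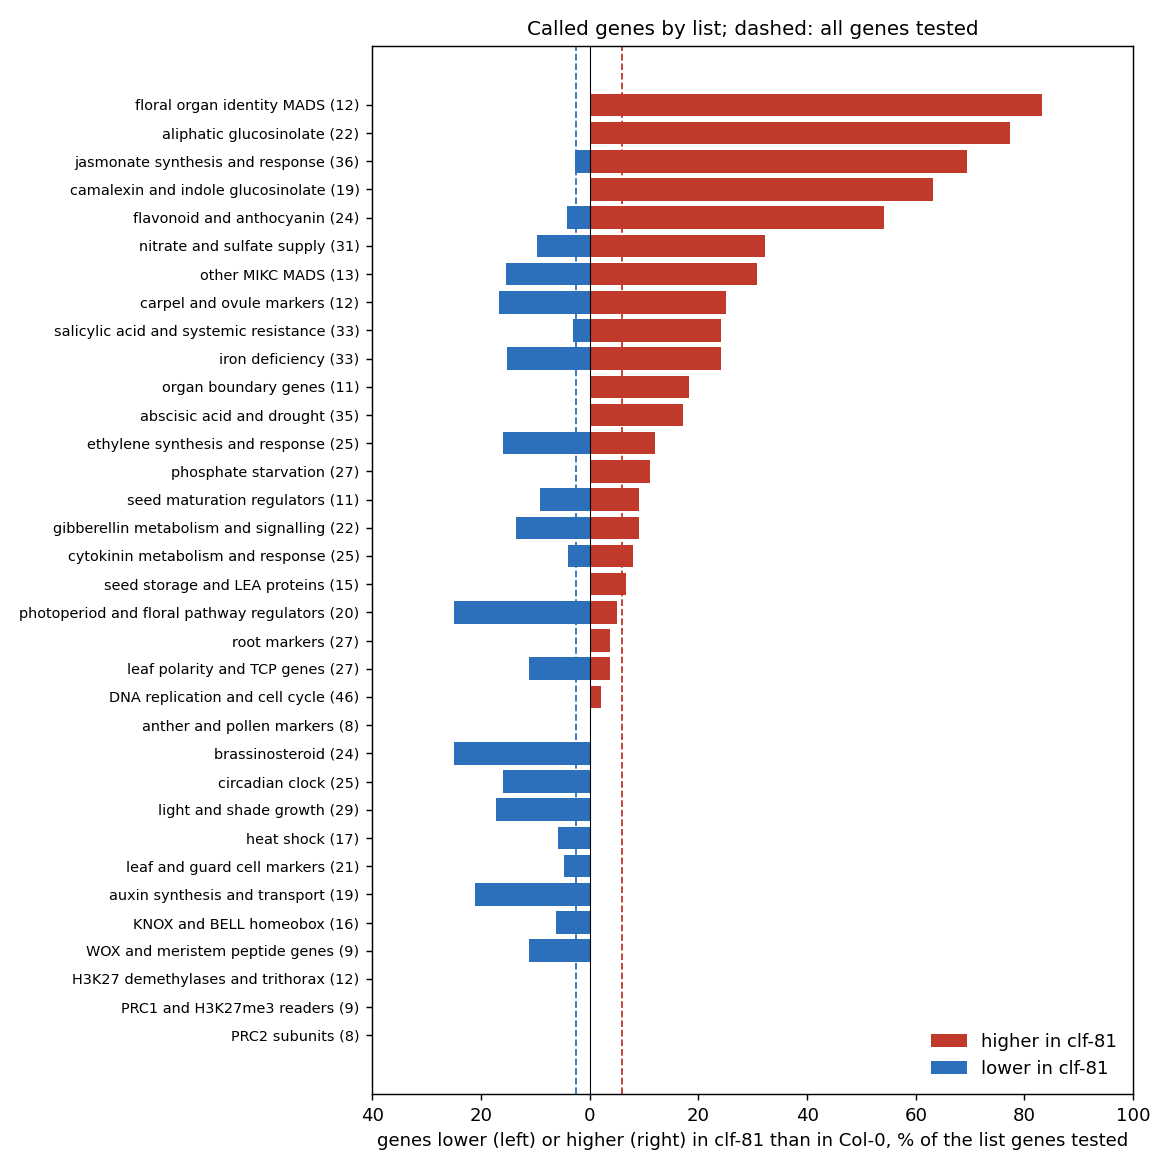
Share of the tested genes of each list that were called higher (red, right) or lower (blue, left) in clf-81 than in Col-0, in percent, for lists with at least 8 tested genes, whose number is in brackets. Dashed lines give the shares over all genes tested, 5.98% higher and 2.55% lower. Floral organ identity, jasmonate, glucosinolate and flavonoid lists reach far right of the line, and brassinosteroid, photoperiod and auxin supply lists reach left.

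Floral organ identity genes of the MADS-box family were higher in clf-81 seedlings. These factors act in combinations to specify sepals, petals, stamens, carpels and ovules. Of 12 tested, 10 were higher and none lower, with a median log2 fold change of 2.11 against -0.06 over all genes. The further 3 members of the list did not pass the filter and were not tested. Some tested members, such as AG, AP3, SHP2 and AP1, were near 0 FPKM in Col-0 and passed the filter only through mutant libraries. Such genes could be called higher but not lower, so the lack of falls among them carries no information. The upstream sequences of the 3 with the largest rises that held GAGA repeats are shown here, since such repeats are known sites of plant GAGA-binding factors that recruit Polycomb proteins. Each line gives the 250 bases before the annotated gene start, read on the gene's strand, 5′ to 3′, from RefSeq with the assembly TAIR10.1, and capitals mark GAGAGA or its complement TCTCTC.
AG (chr4:10382606-10382855, plus strand): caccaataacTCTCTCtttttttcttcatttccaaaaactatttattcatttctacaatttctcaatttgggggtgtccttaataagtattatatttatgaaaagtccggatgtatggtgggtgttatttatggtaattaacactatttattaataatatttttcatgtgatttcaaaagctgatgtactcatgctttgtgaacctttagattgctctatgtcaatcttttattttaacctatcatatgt
SEP3 (chr1:8596124-8596373, minus strand): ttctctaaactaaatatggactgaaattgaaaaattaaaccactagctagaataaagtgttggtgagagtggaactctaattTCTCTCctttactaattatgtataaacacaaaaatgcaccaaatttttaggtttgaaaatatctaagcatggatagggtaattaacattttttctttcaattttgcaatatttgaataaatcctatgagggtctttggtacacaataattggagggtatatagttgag
SHP2 (chr2:17819864-17820113, plus strand): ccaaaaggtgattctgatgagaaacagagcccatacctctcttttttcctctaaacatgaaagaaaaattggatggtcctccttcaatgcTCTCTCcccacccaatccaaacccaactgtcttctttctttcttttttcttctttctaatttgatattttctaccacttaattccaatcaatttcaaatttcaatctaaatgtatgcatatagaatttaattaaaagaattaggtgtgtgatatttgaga
A GAGAGA on either strand lay in this window in 6 of the 10 genes higher (60.0%), namely AG, SEP3, SHP2, PI, SEP4 and SHP1, and in 19.1% of all genes tested that had a window. Over all genes higher in clf-81 the share was 16.8%. It was 50.0% for the brassinosteroid genes lower (3 of 6) and 8.0% for the jasmonate genes higher (2 of 25). A match of 6 letters is a description of the window and not a bound site.

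AG (AGAMOUS), which specifies stamens and carpels and ends the floral meristem, was at 27.01 and 26.7 FPKM in clf-81, 5.47 and 5.05 in lhp1-3, and 0.14 and 0.08 in Col-0. All clf-81 values lay far above both other genotypes, with a log2 fold change of 5.49 ± 0.19 (standard error) over Col-0 (limma adjusted p = 2.9e-08) and a difference of 2.25 ± 0.19 from lhp1-3 (limma adjusted p = 3.6e-05). SEP3, the SEPALLATA factor that bridges the other MADS proteins in complexes, was at 108 and 102 FPKM in clf-81, 89.6 and 91.1 in lhp1-3, and 1.4 and 3.16 in Col-0. It rose by 5.32 ± 0.24 on the log2 scale over Col-0, and its difference from lhp1-3 of 0.21 ± 0.24 did not pass the test. The petal and stamen genes AP3 and PI were at 7.47 and 8.41 and at 7.20 and 5.99 FPKM in clf-81, against 0.04 and 0.17 and 1.11 and 0.50 FPKM in Col-0. The ovule and fruit genes SHP2, STK and SHP1 rose by 3.30, 2.31 and 1.62 on the log2 scale, and SEP1, SEP4 and AP1 by 1.91, 1.46 and 1.05. AP1, which starts the flower and forms sepals and petals, was at only 0.57 and 0.54 FPKM in clf-81 and at 0 and 0.02 FPKM in Col-0, and its call was lost without replicate 1 of Col-0 (log2 fold change 1.02).

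The direct test split the family between the Polycomb mutants. AG, SHP2 and STK, which act in carpels and ovules, stood above lhp1-3 by 2.25, 1.06 and 1.66 on the log2 scale. SEP1 and SEP2 stood below it, at 1.83 and 2.33 FPKM and at 0.24 and 0.62 FPKM in clf-81 against 11.8 and 10.13 FPKM and 7.41 and 6.86 FPKM in lhp1-3. So did AGL8, also called FRUITFULL, a fruit and meristem gene at 0.60 and 0.51 FPKM in clf-81, 4.47 and 3.72 in lhp1-3, and 0.72 and 0.75 in Col-0. SEP2 and AGL8 were the 2 members not called against Col-0. Over the list of 21 carpel and ovule markers, which holds SHP1, SHP2 and STK, the summed FPKM was 43.9 and 40.8 in clf-81 and 44.0 and 41.9 in Col-0, and the carpel gene CRC was at 0.04 and 0.15 FPKM in clf-81 and 0 and 0.18 FPKM in Col-0.

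**Figure D2:**
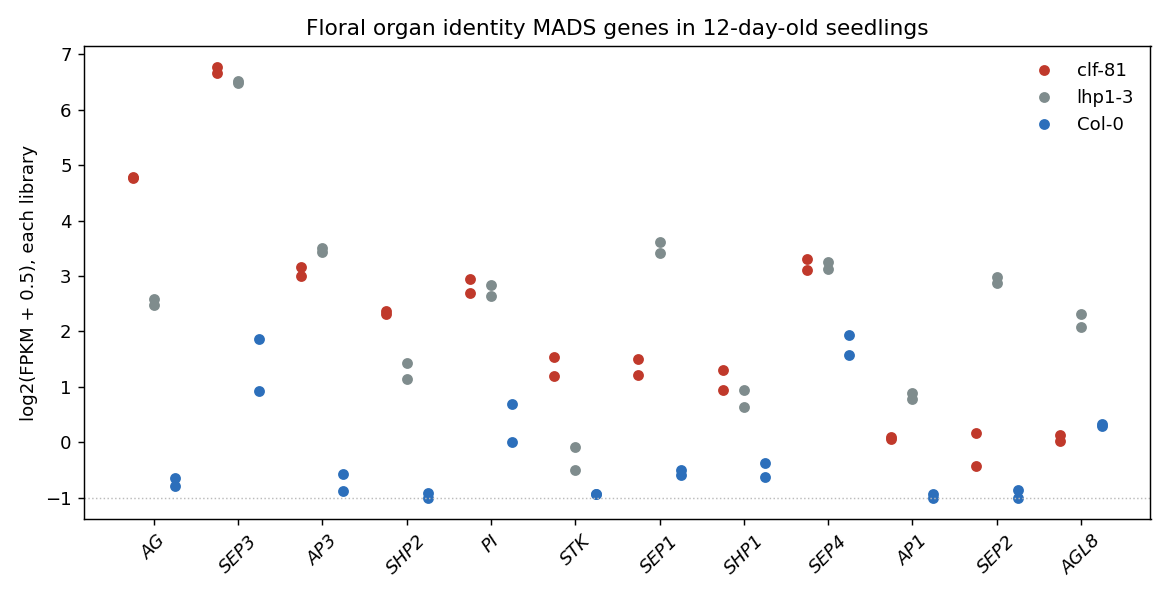
Level of each tested floral organ identity MADS gene in the 2 libraries of clf-81, lhp1-3 and Col-0, as log2(FPKM + 0.5). AG and SEP3 show the widest distance between clf-81 and Col-0, and SEP1, SEP2 and AGL8 are higher in lhp1-3 than in clf-81.

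Flowering-time genes moved in both senses. FT, the mobile flowering signal made in leaf veins, was at 9.25 and 6.16 FPKM in clf-81, 14.2 and 13.1 in lhp1-3, and 0.82 and 1.75 in Col-0 (log2 fold change 2.23 ± 0.37, limma adjusted p = 0.00096). The other 3 tested genes of its family were not called, although 1 of them was called higher without replicate 2 of Col-0. FLC, a repressor of FT, also rose, to 3.96 and 2.89 FPKM in clf-81, against 0.91 and 1.1 FPKM in Col-0 (log2 fold change 1.37 ± 0.25). FLC was at 0.88 and 0.74 FPKM in lhp1-3, and the clf-81 libraries stood above these by 1.57 ± 0.25 on the log2 scale. Its relatives MAF4 and MAF5 were likewise above lhp1-3, by 1.30 and 2.65, without a call against Col-0. SVP, which acts with FLC, fell to 10.2 and 11.4 FPKM in clf-81, against 25.9 and 29.1 FPKM in Col-0.

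Of 20 photoperiod and floral pathway regulators, 5 were lower and 1 was higher. CO, the photoperiod activator of FT, was at 0.44 and 0.53 FPKM in clf-81 and 2.54 and 2.11 FPKM in Col-0, and CDF3, one of its Dof-type repressors, at 5.03 and 5.57 FPKM in clf-81 and 20.9 and 16.7 FPKM in Col-0. The flowering repressors of the AP2 and RAV families that fell were SNZ (log2 fold change -2.58), RAV2 (-1.35) and RAP2.7 (-1.25). SPL4, an age-pathway promoter of flowering, rose by 1.29. Of 13 further MADS genes tested, AGL17 (1.63), AGL44 (1.46), AGL21 (1.45) and AGL24 (1.19) were higher, and AGL14 (-1.19) was lower along with SVP. AGL24 promotes flowering, while AGL14, AGL17, AGL21 and AGL44 are known mainly from roots. Most of these calls hung on single libraries. AGL14 lost its call without any 1 of the 4 libraries (log2 fold change -1.43 to -0.95), AGL44 without any but replicate 2 of Col-0 (1.14 to 1.46), AGL21 without replicate 1 of clf-81 or replicate 2 of Col-0 (1.29 and 1.33), and AGL24 without replicate 1 of Col-0 (0.83).

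Meristem and leaf regulators changed less. Of 16 KNOX and BELL homeobox genes, some of which keep meristem cells undifferentiated, only BLH4 was called (log2 fold change -1.02, and -1.0 without replicate 2 of clf-81). Without replicate 2 of Col-0 some genes of this list were called higher, and without replicate 2 of clf-81 BLH4 was no longer called. The class I KNOX gene STM was at 4.20 and 4.90 FPKM in clf-81 and 1.73 and 3.43 FPKM in Col-0, a difference of 0.77 ± 0.23 on the log2 scale that stayed under 2-fold. WOX1, which drives outgrowth of the leaf blade margin, fell to 0.52 and 0.38 FPKM in clf-81, against 3.81 and 3.46 FPKM in Col-0 (log2 fold change -2.12 ± 0.15, limma adjusted p = 2.5e-06), the one call among 9 WOX and meristem peptide genes. The abaxial genes YAB5 and AFO fell by 1.72 and 1.14 on the log2 scale, and TCP4, which restrains cell division in leaves, by 1.02. BRC1, the TCP factor that holds buds dormant, rose to 1.44 and 1.13 FPKM in clf-81, against 0.04 and 0.04 FPKM in Col-0. The boundary genes LOB and MYB37 rose by 1.13 and 1.14. Of 11 seed maturation regulators 1 was higher, ABI5 (1.55), and 1 lower, DOG1 (-1.07). That is 9.09% each, against 5.98% and 2.55% of all genes. The embryo gene LEC1 was listed at 0 in clf-81 and Col-0.

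Of the lists made for pathways and cell types, that of the jasmonate pathway held the most rises. Jasmonate is made in the plastid and peroxisome from linolenic acid, and its active conjugate lets the receptor COI1 remove JAZ repressors from MYC factors, which then switch on defence against chewing insects and the JAZ genes themselves. Of 36 tested genes of synthesis and response 25 were higher and 1 was lower, with a median log2 fold change of 1.88. AOS and MYC2, the further 2 genes of the list, were listed at 0 to 0.02 FPKM in the libraries of clf-81, lhp1-3 and Col-0 and were not tested. VSP1, a vegetative storage protein, was at 337 and 581 FPKM in clf-81, 29.3 and 29.0 in lhp1-3, and 6.15 and 6.21 in Col-0 (log2 fold change 6.05 ± 0.28, limma adjusted p = 1.3e-07). VSP2 was at 326 and 573 FPKM in clf-81, 49.1 and 50.0 in lhp1-3, and 18.9 and 21.0 in Col-0. In both genes the clf-81 libraries differed from each other by more than the wild-type libraries did, and neither overlapped with another genotype.

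The rises covered synthesis as well as targets. Of 13 tested synthesis enzymes 9 were higher. The first of them, the lipoxygenase LOX2, was at 1140 and 1425 FPKM in clf-81, 403 and 391 in lhp1-3, and 45.8 and 127 in Col-0, where the libraries lay apart by more than 2-fold. Of 12 tested JAZ repressors 9 were higher, with log2 fold changes up to 3.17. The receptor gene COI1 and the factors MYC3 and MYC4 were not called (log2 fold change -0.30 to 0.37). TAT3, a tyrosine aminotransferase, was at 29.8 and 47.5 FPKM in clf-81 and 4.77 and 1.31 FPKM in Col-0. The exception was ORA59, which integrates jasmonate with ethylene, at 3.39 and 4.51 FPKM in clf-81 and 10.2 and 8.21 FPKM in Col-0, a call lost without replicate 1 of either genotype, which left 0 genes lower. The list also set clf-81 apart from lhp1-3. Of its 36 genes 24 stood above lhp1-3 in the direct test, with a median log2 difference of 1.63 against -0.04 over all genes, whereas 3 were higher and 1 lower in lhp1-3 than in Col-0.

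**Figure D3:**
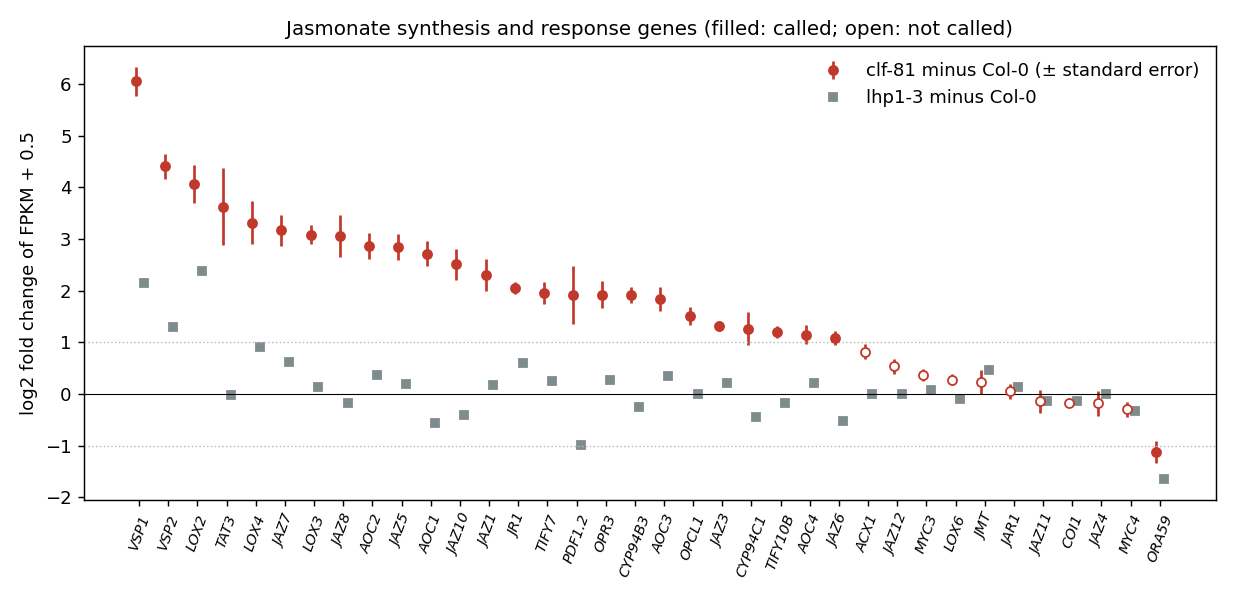
Log2 fold change of each tested jasmonate gene in clf-81 (red) and lhp1-3 (grey), both over Col-0, so that the comparisons share their control libraries. Filled points passed the call and open points did not. The clf-81 points lie above the lhp1-3 points over most of the list, up to 6.05 for VSP1.

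Genes of the methionine-derived glucosinolates, sulfur-rich compounds that are broken down to mustard oils when tissue is damaged, rose as a set. Of 22 tested 17 were higher and none lower (median log2 fold change 1.83). CYP79F1, which commits chain-elongated methionine to the pathway, was at 63.7 and 60.2 FPKM in clf-81, 28.0 and 26.2 in lhp1-3, and 1.97 and 3.98 in Col-0 (log2 fold change 4.23 ± 0.27). MAM1, the first enzyme of chain elongation, was at 327 and 329 FPKM in clf-81, 167 and 165 in lhp1-3, and 40.1 and 46.8 in Col-0. Chain elongation, core structure and side-chain modification contributed 5 of 6, 5 of 6 and 5 of 7 tested genes to the rises. AOP3, a side-chain enzyme, was at 2.46 and 2.1 FPKM in clf-81 and listed at 0 in both Col-0 libraries. Of the MYB regulators MYB29 and MYB76 rose by 1.70 and 1.59, while MYB28 was at 38.5 and 35.4 FPKM in clf-81 and 34.6 and 39.8 FPKM in Col-0.

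Of 19 tested genes of camalexin and indole glucosinolates, defence compounds made from tryptophan, 12 were higher and none lower. CYP71A12 and PAD3, enzymes of the camalexin branch, were at 24.3 and 28.9 FPKM and at 30.2 and 50.1 FPKM in clf-81, against 2.19 and 2.52 FPKM and 6.58 and 7.57 FPKM in Col-0. The gamma-glutamyl peptidase GGP1 and the methyltransferase IGMT5 rose by 2.13 and 2.1 on the log2 scale. Genes of sulfate transport, assimilation and shortage also rose in part, with 10 of 17 tested higher and none lower. Transport and assimilation supply sulfur for camalexin and glucosinolates. The tested uptake carriers of the SULTR1 group were not called. ATSDI1 and LSU1, known from sulfur shortage, were at 32.0 and 27.7 FPKM and at 20.9 and 15.2 FPKM in clf-81, against 3.58 and 6.41 FPKM and 3.22 and 6.59 FPKM in Col-0. APR1, which reduces activated sulfate, and SULTR4;2, which exports it from the vacuole, rose by 1.83 and 1.75. None of these 4 was called different from lhp1-3.

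Flavonoid genes were higher in 13 of 24 cases and lower in 1, with the larger values in the anthocyanin branch. The 5 tested genes of the early steps and of flavonol synthesis, TT4, TT5, TT7, CHIL and FLS1, rose by 1.44 to 1.76 on the log2 scale. The 6 enzymes and carriers of the anthocyanin branch rose by 1.82 to 3.45. DFR, which opens that branch, was at 61.0 and 68.7 FPKM in clf-81, 20.5 and 21.6 in lhp1-3, and 5.88 and 12.6 in Col-0. Its upstream 250 bases (TAIR10.1, read and credited as above) are shown because the G-box CACGTG, in capitals, is a known site of bHLH and bZIP factors.
DFR (chr5:17166033-17166282, minus strand): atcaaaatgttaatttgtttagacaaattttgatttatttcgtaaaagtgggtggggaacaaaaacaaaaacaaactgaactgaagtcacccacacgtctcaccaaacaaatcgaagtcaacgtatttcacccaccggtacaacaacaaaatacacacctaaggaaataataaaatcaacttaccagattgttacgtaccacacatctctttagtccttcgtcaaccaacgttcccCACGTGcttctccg
The G-box lay in this window in 5 of the 13 flavonoid genes higher (38.5%), in 10.4% of all genes higher in clf-81, and in 7.42% of all genes tested that had a window. It lay in 4 of the 25 jasmonate genes higher (16.0%) and in 1 of the 17 glucosinolate genes higher (5.88%). PAP1 (MYB75), the MYB factor that turns on anthocyanin synthesis, was at 7.43 and 9.05 FPKM in clf-81, 0.96 and 0.68 in lhp1-3, and 0.08 and 0.37 in Col-0. UF3GT and LDOX, which act after DFR, rose by 3.45 and 3.26. The 5 early and flavonol genes did not differ from lhp1-3 in any call, whereas 5 of the 6 anthocyanin genes stood above it. MYB111, which drives flavonol synthesis, fell by 1.48.

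Other defence and stress genes also rose, in shares that differed between lists and families. Of 33 genes of salicylic acid signalling 8 were higher (24.2%) and 1 was lower (3.03%), against 5.98% and 2.55% of all genes. WRKY18, a factor induced by pathogens, was at 91.9 and 109 FPKM in clf-81, 30.2 and 30.2 in lhp1-3, and 15.5 and 14.8 in Col-0, and PR1, the classic marker of this pathway, was at 83.7 and 152 FPKM in clf-81 and 14.4 and 28.0 FPKM in Col-0. UGT76B1 and WRKY62 rose by 1.87 and 1.73, and ACD6 fell by 1.45. The count of 8 became 5, 4 and 4 without replicate 1 of clf-81, replicate 2 of clf-81 and replicate 1 of Col-0, and PR1 lost its call without the last 2 of these (log2 fold change 2.03 and 1.99). In lhp1-3 none of these 33 genes was higher than in Col-0 and 3 were lower, and 12 of them stood higher in clf-81 than in lhp1-3. Of 12 tested defensin and thionin genes 7 were higher (58.3%), led by THI2.1 at 2.58 and 5.0 FPKM in clf-81 and listed at 0 in Col-0. That count became 2, 2 and 4 without replicate 1 of clf-81, replicate 2 of clf-81 and replicate 2 of Col-0. Among larger families, 18 of 43 glutathione transferases, 47 of 155 cytochrome P450 genes, 23 of 80 UDP-glycosyltransferases and 11 of 61 WRKY factors were higher, the last of these counts becoming 7 without replicate 2 of clf-81 or replicate 1 of Col-0.

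Abscisic acid and drought genes were higher in 6 of 35 cases (17.1%, against 5.98% of all genes) and lower in none. RD20, a calcium-binding lipid body protein induced by drought, was at 103 and 149 FPKM in clf-81, 18.1 and 15.5 in lhp1-3, and 3.18 and 4.73 in Col-0 (log2 fold change 4.83 ± 0.30). NAC019, a stress-induced NAC factor, was at 16.3 and 19.8 FPKM in clf-81 and 0.58 and 0.30 FPKM in Col-0. RD26 and the abscisic acid hydroxylase CYP707A1 rose by 1.57 and 1.46. RNS1, a secreted ribonuclease known from phosphate shortage, rose by 4.81. It was 1 of 3 phosphate genes higher among 27 tested (11.1%, against 5.98% of all genes), and none was lower. The sugar carriers SAG29 (SWEET15) and SWEET10 were at 33.7 and 18.9 FPKM and at 19.1 and 21.8 FPKM in clf-81, against 0.66 and 1.74 FPKM and 0.96 and 0.80 FPKM in Col-0, and 5 of 12 SWEET genes were higher. That count became 3, 2 and 2 without replicate 1 of clf-81, replicate 2 of clf-81 and replicate 1 of Col-0, with SWEET13 and SWEET14 losing their calls in each case.

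Genes of iron uptake were among those higher, and genes of iron storage among those lower. IRT1, the main iron importer of roots, was at 100.8 and 76.0 FPKM in clf-81, 190 and 187 in lhp1-3, and 26.7 and 26.0 in Col-0. BHLH100, NAS2 and CYP82C4 rose by 2.12, 1.58 and 1.53, although the wild-type libraries of BHLH100 lay apart, at 2.87 and 13.2 FPKM. In all, 8 of 33 iron genes were higher (24.2%) and 5 lower (15.2%), against 5.98% and 2.55% of all genes. The falls were 3 vacuolar iron transporter-like genes (AT1G76800, AT1G21140 and AT3G25190) and the ferritins FER1 and FER4. Without replicate 1 of clf-81 or of Col-0 the count of 8 became 4 or 3, BHLH100 and NAS2 losing their calls in both cases (log2 fold change 2.05 and 1.4 or 1.11 and 1.51), and without replicate 2 of clf-81 BHLH100 lost its call again (2.2) and the count of 5 became 3. FER1 was at 65.5 and 46.2 FPKM in clf-81 and 125 and 112 FPKM in Col-0. IRT1, NAS2 and CYP82C4 were higher still in lhp1-3, and 6 genes of the list stood lower in clf-81 than in lhp1-3.

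A part of the falls lay among genes of auxin and brassinosteroid, hormones of cell expansion. Over the broader annotation term auxin, 42 of 404 tested genes were lower (10.4%) and 26 higher (6.44%), against 2.55% and 5.98% of all genes. Aux/IAA and SAUR genes are early targets of auxin, and SAUR proteins promote cell expansion. Of 25 tested SAUR genes 12 were lower and none higher, and of 23 Aux/IAA genes 7 were lower and 1 was higher, IAA31. Without replicate 1 of Col-0 the count of SAUR genes lower became 7, and IAA31 was no longer called without replicate 1 of clf-81 or replicate 2 of Col-0. Upstream windows of a gene from each family are shown because they carry the auxin response element TGTCTC or its complement GAGACA, the known site of ARF factors, in capitals (250 bases before the gene start, TAIR10.1, as above).
IAA19 (chr3:5263751-5264000, plus strand): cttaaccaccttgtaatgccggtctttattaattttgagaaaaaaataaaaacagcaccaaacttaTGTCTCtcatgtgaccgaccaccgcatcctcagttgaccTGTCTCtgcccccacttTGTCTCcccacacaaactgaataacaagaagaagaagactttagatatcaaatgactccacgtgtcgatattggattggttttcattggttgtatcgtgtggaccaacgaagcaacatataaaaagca
SAUR15 (chr4:18125807-18126056, plus strand): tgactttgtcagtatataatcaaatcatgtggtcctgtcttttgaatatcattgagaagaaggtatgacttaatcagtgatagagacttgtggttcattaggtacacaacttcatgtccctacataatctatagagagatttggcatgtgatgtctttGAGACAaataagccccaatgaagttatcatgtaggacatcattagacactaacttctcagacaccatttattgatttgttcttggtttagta
The element lay in the windows of 10 of the 19 Aux/IAA and SAUR genes lower (52.6%), and in 10.5% of those of all genes tested. Over all genes lower the share was 15.6%. The element also lay in the windows of 6 of the 25 jasmonate genes higher (24.0%), and in those of 0 of the 6 brassinosteroid genes lower. Among the genes with the largest falls of this set, IAA5 and IAA1 had the element and IAA29 did not.

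IAA19 was at 2.95 and 2.57 FPKM in clf-81, 3.65 and 2.98 in lhp1-3, and 29.9 and 24.4 in Col-0, so that both mutants lay far below the wild type (log2 fold change -3.08 ± 0.30, limma adjusted p = 2.3e-05). IAA29 was at 0.13 and 0.16 FPKM in clf-81 and 5.43 and 5.31 FPKM in Col-0. IAA1 and IAA5 fell by 2.5 and 2.43 on the log2 scale. SAUR15 was at 0.91 and 0.80 FPKM in clf-81 and 5.93 and 3.99 FPKM in Col-0, and AT1G29490, SAUR24 and SAUR63 fell by 2.19, 2.06 and 1.79. SAUR genes stand in tandem copies of similar sequence, so that counting could have split their reads. Runs of neighbouring SAUR genes fell together on chromosome 1 (SAUR62, SAUR63, SAUR64 and AT1G29460, log2 fold change -1.80 to -1.59) and on chromosome 5 (SAUR19, SAUR20 and SAUR21, -1.64 to -1.17).

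Auxin transport fell at particular genes. PIN proteins carry auxin out of cells and set the direction of its flow. PIN7 was at 13.8 and 12.8 FPKM in clf-81, 17.58 and 17.9 in lhp1-3, and 58.0 and 56.9 in Col-0 (log2 fold change -2.07 ± 0.11, limma adjusted p = 2.2e-07). PIN3 and PIN4, its nearest relatives, fell by 1.82 and 1.76. EIR1, a root gene of the family, was at 14.8 and 14.3 FPKM in clf-81 and 13.3 and 14.8 FPKM in Col-0. None of 4 influx carriers was called, and of 8 genes of auxin synthesis 1 was, YUC2 (-1.28).

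Of the list of 24 brassinosteroid genes 6 were lower and none higher. Over the broader annotation term brassinosteroid, 12 of 120 tested genes were higher and 7 lower, the rises including cytochrome P450 genes such as CYP708A2 and abscisic acid hydroxylases such as CYP707A1. The falls of the list were chiefly in small bHLH proteins that promote elongation downstream of the hormone, since 5 of 6 tested genes of that kind were lower and none of 5 receptors and kinases was called. KDR was at 2.2 and 3.63 FPKM in clf-81, 1.71 and 2.1 in lhp1-3, and 21.3 and 23.7 in Col-0. BEE1 and BEE3 fell by 2.36 and 2.21 and BEE2 by 1.53. The receptor gene BRI1 was at 26.0 and 23.46 FPKM in clf-81 and 51.2 and 48.2 FPKM in Col-0, just under the 2-fold criterion at a log2 fold change of -0.99. The wall-loosening expansins EXPA1, EXPA8 and EXPA16 fell by 3.44, 3.19 and 1.85, EXPA1 to 29.3 and 30.0 FPKM in clf-81, against 315 and 339 FPKM in Col-0. They were the 3 falls among 30 tested genes matched as expansins. The 4 rises in that set were the expansin-like EXLA1 (2.81) and PHI-1, EXL4 and EXL3, which belong to another family of similar name. Of 30 xyloglucan hydrolases, which remodel wall polymers, 6 were higher and none lower, led by XTH25 and XTR6 (2.45 each). Among 22 tested gibberellin genes 2 were higher (9.09%) and 3 lower (13.6%), against 5.98% and 2.55% of all genes. GA20OX1 and GA3OX1, which make the active hormone, fell by 1.31 and 1.02, and GA2OX2, which inactivates it, rose by 2.32. Their tested relatives GA20OX2, GA3OX2, GA2OX6 and GA2OX8 were not called. The gibberellin-induced peptide gene GASA6 was at 18.3 and 14.5 FPKM in clf-81, 40.1 and 40.6 in lhp1-3, and 195 and 244 in Col-0.

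**Figure D4:**
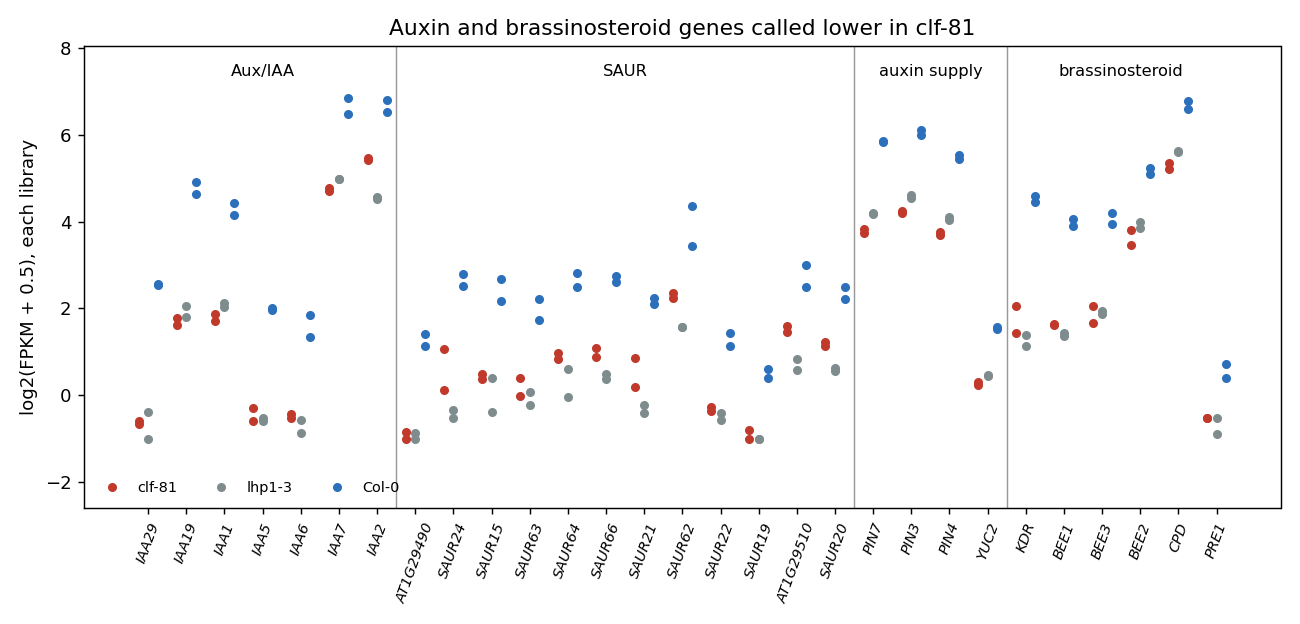
Level of the Aux/IAA, SAUR, auxin supply and brassinosteroid genes called lower in clf-81, in each library of clf-81, lhp1-3 and Col-0, as log2(FPKM + 0.5). Both mutants lie below Col-0 for every gene shown, and only SAUR24 was called different between them.

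Of the 19 auxin supply genes and the 24 brassinosteroid genes none was called different between clf-81 and lhp1-3, and 7 of the 23 Aux/IAA genes and 17 of the 25 SAUR genes were lower in lhp1-3 than in Col-0. A missing call does not show that the mutants were alike, and for IAA19 the difference was -0.22 ± 0.30 on the log2 scale. Light and clock genes fell in part, and none was higher. Of 29 light and shade genes 5 were lower (17.2%), among them PAR2 at -1.44 and BBX28 at -1.36. Of 25 clock genes 4 were lower (16.0%), among them AT5G06980 at -1.37 and PRR9 at -1.16, against 2.55% of all genes. Without replicate 1 of Col-0 both counts became 2. The time of day of harvest is not given in the sources used here, and its part in these values was not tested. Of 46 genes of DNA replication and the cell cycle 1 was called, CYCD3;2 (1.03, and 0.87 with no call without replicate 1 of Col-0), which lies in a block on chromosome 5.

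The largest rises over all genes mixed these groups. LTP4, a lipid transfer protein, was at 220 and 250 FPKM in clf-81, 92.4 and 86.1 in lhp1-3, and 0.33 and 3.77 in Col-0 (log2 fold change 6.96 ± 0.71, limma adjusted p = 3.0e-05). BAM5, a beta-amylase outside the plastid, was at 247 and 366 FPKM in clf-81 and 1.03 and 4.13 FPKM in Col-0, and the lectin-like gene JAL23 at 137 and 210 FPKM in clf-81 and 1.23 and 2.12 FPKM in Col-0. ATHB54 (AT1G27045), a homeodomain leucine zipper factor, was at 67.2 and 74.1 FPKM in clf-81, 18.3 and 18.0 in lhp1-3, and 0.80 and 0.85 in Col-0. The others of the 15 largest were VSP1, NATA1, BSMT1, CORI3 and DXPS1, AG and SEP3, and AT5G39220, AT4G33720, AT5G11360 and AT1G03710, with log2 fold changes of 5.08 to 6.05. NATA1 makes acetylornithine, a defence compound, and BSMT1 makes volatile methyl esters of benzoate and salicylate.

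Among the 15 largest falls only 5 were nuclear genes. AT3G16670 was at 0.15 and 0.64 FPKM in clf-81, 42.1 and 36.8 in lhp1-3, and 92.1 and 100.6 in Col-0 (log2 fold change -6.81 ± 0.24, limma adjusted p = 2.9e-08). AT3G05730, which encodes a defensin-like protein, was at 6.03 and 7.92 FPKM in clf-81, 89.3 and 84.8 in lhp1-3, and 94.4 and 116 in Col-0. They stood 5.53 and 3.56 on the log2 scale below lhp1-3, in which AT3G16670 was itself lower than in Col-0 (-1.28) and AT3G05730 was not called. AT3G16660, which lies next to AT3G16670 and was picked after its value was seen, fell by 3.27. AT1G75945 was at 0.18 and 0 FPKM in clf-81, listed at 0 in lhp1-3, and at 17.9 and 19.1 in Col-0, and AT5G02760 was at 5.71 and 4.72 FPKM in clf-81, 4.42 and 3.30 in lhp1-3, and 91.8 and 77.4 in Col-0, low in both mutants. The fifth was GASA6.

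The other 10 were chloroplast genes, among them PSBA, RBCL and PSBC. Chloroplast transcripts lack long poly(A) tails, and per the labels the libraries were made by poly(A) selection. Their summed FPKM varied widely, at 230 and 227 in clf-81, 401 and 1957 in lhp1-3, 3443 and 1023 in Col-0 and 389 to 2930 in the other mutants. Both clf-81 sums were the lowest of the 16 libraries, and the Col-0 libraries differed from each other by more than 3-fold. How much the share of organelle RNA in the libraries contributed to these falls was not tested. Photosystem genes of the chloroplast genome were lower in 18 of 20 cases (median log2 fold change -2.90), those of the nuclear genome in 1 of 39, PSAF, with a median of -0.55. Without replicate 1 of Col-0, which had the largest chloroplast sum, 2 of these 59 genes were lower in place of 19, and PSBA, RBCL and PSBC lost their calls (log2 fold change -2.99, -2.82 and -2.51).

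Some of the genes called higher stood beside each other on the chromosomes. Of 1177 genes higher that had a position in the TAIR10.1 annotation, 334 had a directly neighbouring tested gene that was also higher (28.4%), whereas 11.5% of all genes tested had such a neighbour. For the genes lower the shares were 13.0% and 4.16%, and neither difference was tested. Many of these runs were tandem copies of a family, as with GSTU6, GSTU5, GSTU4, GSTU3 and GSTU1 on chromosome 2, AOC1, AOC2 and AOC3 on chromosome 3, and NIT2, NIT1 and NIT3 on chromosome 3. Near-identical copies can share reads, so their calls are not separate observations.

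The longest run of another kind lay near the end of chromosome 5, and was picked out after its values had been seen. There 18 consecutive tested genes, from AT5G67200 to ARA12 (AT5G67360; chr5:26813670-26874850, TAIR10.1, 61.2 kb), were all higher in both clf-81 libraries than in both Col-0 libraries, which holds for 30.9% of all genes tested. Of them 13 were called higher and 5 were not, with a median log2 fold change of 1.08 and 12 genes between 0.7 and 1.4. The next longest run of that kind held 9 genes. They do not form a family. CYCD3;2, a D-type cyclin, was at 60.6 and 61.8 FPKM in clf-81, 32.8 and 32.6 in lhp1-3, and 26.4 and 33.3 in Col-0. HOS15, a WD40 repeat protein of histone deacetylase complexes, was at 31.9 and 32.5 FPKM in clf-81, 19.0 and 18.17 in lhp1-3, and 19.0 and 19.0 in Col-0, a log2 fold change of 0.75. The xylan genes IRX15-L and IRX14-L rose by 1.79 and 1.07, the metal transporter NRAMP4 by 1.86 and the protease ARA12 by 1.33. MYBR1 (MYB44), at 282 and 274 FPKM in clf-81, 74.6 and 72.4 in lhp1-3, and 32.8 and 37.8 in Col-0, rose the most, by 2.96.

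Most genes on either side did not share the rise. Of 20 flanking genes none was called higher, 1 was lower, and their median log2 fold change was -0.30. Before the block, however, AT5G67140, AT5G67150 and EPS1 were at 0.87, 0.71 and 0.93, under 2-fold but with limma adjusted p of 0.021, 0.0049 and 0.0018, and after it, beyond these 20, BT4 was called higher (1.32). Over the block the median log2 difference from the Col-0 mean was 1.06 and 1.1 in the clf-81 libraries and -0.07 to 0.21 in the other 14 libraries. Against lhp1-3 12 of the 18 genes were higher, with a median difference of 1.15. Among 19491 windows of 15 consecutive tested genes in the genome, 4 had no gene with a log2 fold change below 0, and all 4 lay in this block. A run of 18 genes all above Col-0 holds such windows by its construction, so for the block this count restates how it was picked. Outside the block the lowest value in a window was at most -0.0154. The cause was not tested. The block held 1.09% of the genes called higher, so that 1177 genes were higher without it.

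**Figure D5:**
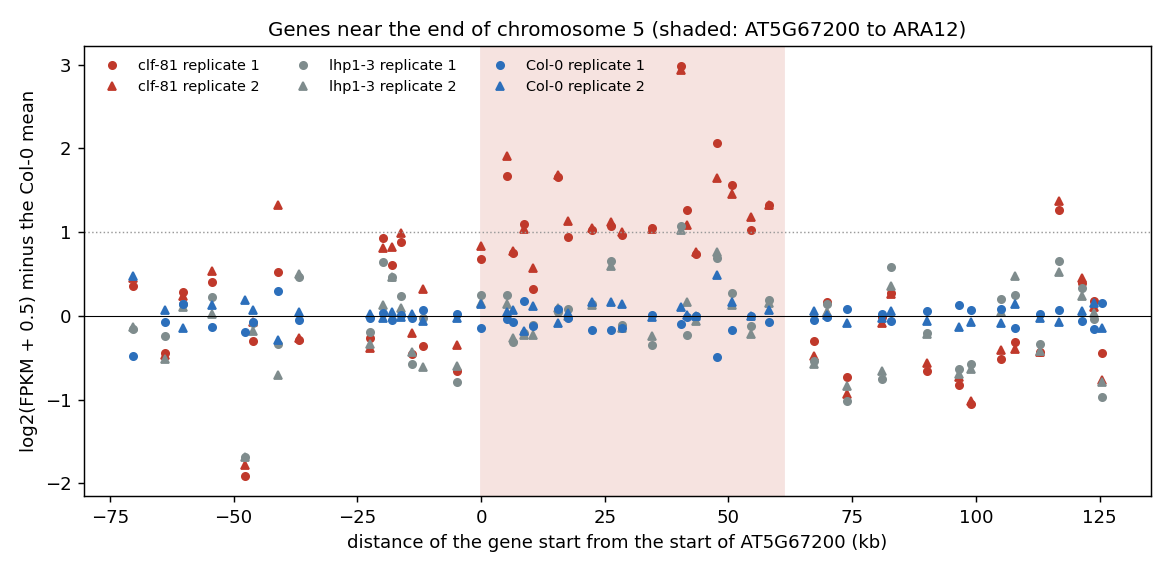
Log2(FPKM + 0.5) minus the mean of the Col-0 libraries for the tested genes around the block, in each library of clf-81, lhp1-3 and Col-0, by distance of the gene start from the start of AT5G67200 in kb. The dotted line marks 2-fold. Within the shaded block every clf-81 point lies above 0, most of them near the dotted line, and on either side most points scatter around or below 0, with EPS1 and its neighbours and BT4 among those above.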

How the data were processed

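Total RNA of whole seedlings (RNeasy kit) was turned into poly(A)-selected libraries, per the labels, and reads were trimmed with SeqPrep and Sickle, according to the study's methods. The authors deposited 1 FPKM value per gene and library, with 2 decimals. The submitters' processing notes name TopHat, Bowtie, RSEM and edgeR without roles or versions, and the genome build for the mRNA-seq is not given in the sources used here. Depth was read from the steps between low FPKM values, of which 97.4 to 99.2% lay within 0.2 fragments of a whole number.

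The test was that of limma 3.58.1 (R 4.3.3; empirical Bayes with a trend), run on FPKM after adding 0.5 and taking log2. All 16 libraries of 8 genotypes were fitted together, which gave 8 residual degrees of freedom. A gene entered if 2 or more libraries reached 1 FPKM, and p-values were adjusted by Benjamini and Hochberg over 19895 genes. Calls needed both a 2-fold difference and an adjusted p below 0.05. Every fold change is on the log2(FPKM + 0.5) scale, so those of weakly expressed genes come out too small. None is given against libraries all listed at 0. The statistics were tested on simulated data. Upstream windows, positions and neighbours came from the RefSeq annotation of TAIR10.1, matched by locus identifier for 32536 of 33048 genes.

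The members and lists were chosen with earlier results of these data known. Named genes were CLF and SWN, the called members of the developmental, FT, FLC and seed regulator lists, the 15 largest rises and 15 largest falls without overlap between groups, and up to 4 called members of each other list or family. Further names were chosen after their values were seen. Alternatives covered the pseudocount, the filter, scaling, the libraries in the fit, the replicate block, the call rule and each library left out. The check of pairing found a correlation of 0.06 between the deviations of libraries of clf-81 and Col-0 with the same number.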

Additional observations from a re-analysis of the deposited data

How the results depend on the processing

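The counts of genes higher and lower than in Col-0 stayed within 1.5 times of the reported ones under other pseudocounts (1304 and 680 at 0.1, 1035 and 390 at 1), no filter (1226 and 498), a filter of 5 FPKM (897 and 362), quantile (1112 and 490) or median-ratio scaling (1287 and 445), and with the 4 libraries alone (1210 and 532). Leaving out each library of clf-81 and Col-0 in turn gave 964 to 1251 genes higher and 373 to 556 lower, and leaving out each of clf-81 and lhp1-3 gave 482 to 730 different from lhp1-3, of which 615 and 517 were without lhp1-3 replicates 1 and 2. The call rule mattered most. The adjusted p alone called 2610 genes higher, 2930 lower and 2904 different from lhp1-3 (1483 higher, 1421 lower), and a 2-fold difference in each of the 4 pairs of libraries, with no test, held for 897 genes higher and 337 lower. The adjusted p alone adds small differences by its construction, and the cause of the other shifts was not tested.

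With the replicate number as a block, 1183 genes were higher, 504 lower and 808 different from lhp1-3. The labels do not say what a number shares, so the block is not read as a pairing.

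Of 206 named genes, 37 lost their call without replicate 1 of Col-0, 14 without replicate 2 of Col-0, 18 without replicate 1 of clf-81 and 30 without replicate 2 of clf-81. Besides those given above, SAUR63 lost it without replicate 1 of Col-0 (-1.55) or replicate 2 of clf-81 (-1.57), TCP4 and GA3OX1 lost it without replicate 2 of Col-0 (-0.96 and -0.94) or of clf-81 (-0.89 and -0.81), LOB without replicate 2 of Col-0 (0.92), MYB37 and DOG1 without replicate 1 of Col-0 (0.87 and -0.89), and DOG1 and PRR9 without replicate 2 of clf-81 (-0.94 and -0.88). The 1 reversal was SWN, which was not called, at -0.0428 without replicate 1 of clf-81 and 0.213 without replicate 2. Alternatives without an lhp1-3 library, the aipp2-1/paipp2-1 libraries (1223 and 547), the organelle genes (1190 and 429) or the chromosome 5 block (1177 and 507) were added after seeing the data. Depth limits genes under about 1 FPKM, and 2 libraries a group limit every error given.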

Other observations

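Other hormone genes changed in part. Ethylene genes moved both ways, with 3 of 25 higher (12.0%) and 4 lower (16.0%), against 5.98% and 2.55% of all genes. ACS4, one of the enzymes that make the ethylene precursor, was at 0.02 and 0 FPKM in clf-81, at 0 and 0.02 in lhp1-3, and at 2.8 and 2.62 in Col-0, while its relatives ACS7 and ACS2 rose by 1.94 and 1.83 on the log2 scale. EBF2, which helps remove the ethylene factor EIN3, fell by 1.25. Among 25 cytokinin genes 2 were higher (8.0%) and 1 lower (4.0%), near the shares over all genes (5.98% and 2.55%). The hormone-degrading oxidases CKX5 and CKX3 rose by 1.44 and 1.2 and the response regulator RR16 fell by 1.01. RR16 lost its call without replicate 1 of clf-81 (-0.96) or replicate 2 of Col-0 (-0.75). RGL2, a DELLA repressor of gibberellin responses, rose by 1.13, a call lost without replicate 1 of clf-81 (1.08) or of Col-0 (1.03). Of 15 seed storage and LEA protein genes 1 was higher (6.67%), near the share over all genes. It was RAB18 (AT5G66400, 1.45), which lost its call without any 1 of the 4 libraries (1.33 to 1.58). Of 17 heat shock genes none was higher and 1 was lower (5.88%, against 2.55% of all genes). It was HSFA7A (-1.06), which lost its call without replicate 2 of clf-81 (-0.84) or replicate 1 of Col-0 (-0.88).

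Further genes of the lists and families are given here, of which TCP1, GNC, CGA1 and NRT1.8 were picked after their values were seen. TCP1, a TCP factor of the branch that shapes flower symmetry in snapdragon, was at 6.57 and 6.22 FPKM in clf-81, 1.83 and 1.42 in lhp1-3, and 0.33 and 0.39 in Col-0. The paralogous GATA factors GNC and CGA1 (AT4G26150), which promote greening, fell by 1.92 and 1.5 on the log2 scale and stood 1.16 and 1.11 below lhp1-3. GNC (AT5G56860) was at 6.23 and 6.02 FPKM in clf-81, 14.5 and 14.2 in lhp1-3, and 23.64 and 25.4 in Col-0. The nitrate transporter gene NRT1.8 was at 66.3 and 93.9 FPKM in clf-81, 8.81 and 8.47 in lhp1-3, and 7.0 and 10.11 in Col-0, whereas the nitrate reductase gene NIA1 fell to 118 and 114 FPKM in clf-81, against 275 and 264 FPKM in Col-0. HEC1, a bHLH gene of the carpel, was at 0.10 and 0.16 FPKM in clf-81 and 1.48 and 2.08 FPKM in Col-0.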
